A study of Homo sapiens with 6 samples.

Results

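The genes described here are receptor tyrosine kinases and ligands of the epidermal growth factor (EGF) family. They were chosen by name: the receptor genes EGFR, ERBB2, MET, EPHA2, EPHA4 and FGFR3, and the ligand genes HBEGF, AREG, EREG and TGFA. Together they are 10 of the 60612 genes in the deposited table, and all 10 were among the 18863 genes that passed the filter on low counts. The cells were PANC-1, an established line from a human carcinoma of the pancreas. Their RNA was sequenced in 3 raffinose libraries, from cells given 50 µM D(+)-raffinose pentahydrate (a plant trisaccharide, as its hydrate) for 24 h, and in 3 untreated libraries. For untreated cells the labels name neither a vehicle nor a time. The labels do not say whether each library had a culture of its own, so the p-values rest on a spread among libraries that may be technical only.

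Receptor tyrosine kinases span the plasma membrane and, once a ligand brings them together, phosphorylate each other and recruit adaptors that feed the RAS/ERK and PI3K/AKT pathways. EGF-family ligands are made as membrane-bound precursors, and metalloproteases of the ADAM family cut them free. In pancreatic ductal carcinoma EGFR is a known drug target, and MET and EPHA2 are receptors linked to invasion.

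Summed over genes, a library had between 59723420 and 66063664 counts. These are the authors' estimated counts, in which 1 read pair seems to add 4 to the value, so they overstate the number of fragments. Of 6 epithelial markers, KRT8 and KRT18 were high, whereas EPCAM did not exceed 0.290 FPKM and KRT19 did not exceed 0.228 FPKM in any library. The summed level of these 6 markers was 655 to 687 FPKM in raffinose libraries and 851 to 988 FPKM in untreated libraries. KRT7, KRT8 and KRT18 were called lower with raffinose by DESeq2 and not by edgeR. CDH1, another of the 6, averaged 9.45 FPKM in raffinose and 10.2 FPKM in untreated libraries and was called by neither (DESeq2 adjusted p = 0.559, edgeR adjusted p = 0.522). The 7 acinar markers had no reads in any library, and the summed level of 6 endothelial markers did not exceed 0.117 FPKM. Of 8 fibroblast markers 2 reached 1 FPKM in a library. COL3A1 averaged 41.4 FPKM in raffinose and 47.0 FPKM in untreated libraries (DESeq2 adjusted p = 0.0344, edgeR adjusted p = 0.178), and COL1A1 averaged 3.76 FPKM in raffinose and 3.10 FPKM in untreated libraries. The summed fibroblast level was 44.6 to 47.3 FPKM in raffinose and 48.0 to 52.1 FPKM in untreated libraries. Of 7 leukocyte markers 1 reached 1 FPKM, CD68, with a mean of 8.20 FPKM in raffinose and 14.0 FPKM in untreated libraries (DESeq2 adjusted p = 0.000599, edgeR adjusted p = 0.146). The summed leukocyte level was 7.07 to 9.54 FPKM in raffinose and 12.5 to 16.0 FPKM in untreated libraries, while PTPRC did not exceed 0.0109 FPKM and CD3E had no reads. The part of these marker differences in the results below was not tested. In RNA of whole cultures, fewer cells of a type and less RNA per cell cannot be told apart.

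RefSeq promoter windows (build GRCh38.p14) were found for all 10 genes. For 8 of them the RefSeq start was also the start of the gene in the deposited table. The 250 bases before the start are shown for 4 genes, chosen with their values known. EREG and AREG were taken because these ligand genes are neighbours on chromosome 4 and their fold changes below differed in size. Neither of them passed, and they were not tested against each other. EGFR was taken as their receptor, and EPHA2 as the receptor gene with the highest level. Capitals mark matches, on either strand, to the cyclic AMP response element TGACGTCA, the TATA motif TATAAA and the GC box GGGCGG, and no match overlapped another in these 4 windows. The windows lie at chr4:74364895-74365144 (plus strand) for EREG, chr4:74444886-74445135 (plus strand) for AREG, chr7:55018767-55019016 (plus strand) for EGFR and chr1:16156070-16156319 (minus strand) for EPHA2.
EREG: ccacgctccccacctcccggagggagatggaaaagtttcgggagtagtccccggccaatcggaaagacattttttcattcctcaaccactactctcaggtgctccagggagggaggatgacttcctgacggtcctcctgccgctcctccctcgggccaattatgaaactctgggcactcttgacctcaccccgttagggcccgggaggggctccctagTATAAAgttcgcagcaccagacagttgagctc
AREG: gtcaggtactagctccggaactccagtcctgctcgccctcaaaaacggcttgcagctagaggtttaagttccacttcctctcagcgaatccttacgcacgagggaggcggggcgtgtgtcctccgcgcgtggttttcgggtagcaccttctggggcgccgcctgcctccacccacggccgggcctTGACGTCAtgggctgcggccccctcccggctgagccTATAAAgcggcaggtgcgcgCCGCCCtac
EGFR: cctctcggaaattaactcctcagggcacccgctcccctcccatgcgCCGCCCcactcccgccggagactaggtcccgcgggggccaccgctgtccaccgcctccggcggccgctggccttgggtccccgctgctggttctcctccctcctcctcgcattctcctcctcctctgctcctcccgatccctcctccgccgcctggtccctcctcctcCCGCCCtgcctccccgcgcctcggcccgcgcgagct
EPHA2: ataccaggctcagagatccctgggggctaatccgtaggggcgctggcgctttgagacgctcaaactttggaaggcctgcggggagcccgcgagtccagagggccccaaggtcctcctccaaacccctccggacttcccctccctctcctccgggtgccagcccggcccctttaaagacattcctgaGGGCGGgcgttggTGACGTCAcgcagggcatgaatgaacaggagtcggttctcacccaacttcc

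The response element occurred in the AREG window, with its first base 65 bases before the start, and in the EPHA2 window, 51 bases before it. Among the 10 genes these were the 2 windows with that element, and 1.65% of all 35116 RefSeq windows of the same length held it. The TATA motif stood 29 bases before the start of AREG and 32 bases before that of EREG, and 10.7% of all windows held one. Neither motif was found in the EGFR window, which had 2 GC boxes and a GC content of 73.6%. A GC box was present in the windows of 8 of the 10 genes and in 42.6% of all windows. The AP-1 motif TGANTCA was found in the window of 1 gene, ERBB2, and in 6.57% of all windows. For ERBB2 the RefSeq start lies 180 bases downstream of the start of the gene in the deposited table. A match describes these letters only and is no evidence of binding.

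Levels of different genes are compared in FPKM, which is set per length of transcript. EPHA2, a receptor for ephrin-A ligands on neighbouring cells, had the highest mean over the 6 libraries, at 97.2 FPKM, above 98.2% of tested genes. Next came the ligand gene AREG at 37.5 FPKM, EGFR at 28.6 FPKM and the ligand gene EREG at 27.7 FPKM. The order of EGFR and EREG is not resolved, since their ranges over the libraries overlap. MET, the receptor for hepatocyte growth factor, had a mean of 16.4 FPKM and TGFA one of 10.3 FPKM. ERBB2, the ErbB receptor without a known ligand of its own, had 3.98 FPKM. FGFR3 at 1.27 FPKM and HBEGF at 1.21 FPKM overlapped in their ranges. EPHA4 had 0.0456 FPKM, above 3.44% of tested genes, and its estimated counts lay between 17 and 40 per library.

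**Figure D1:**
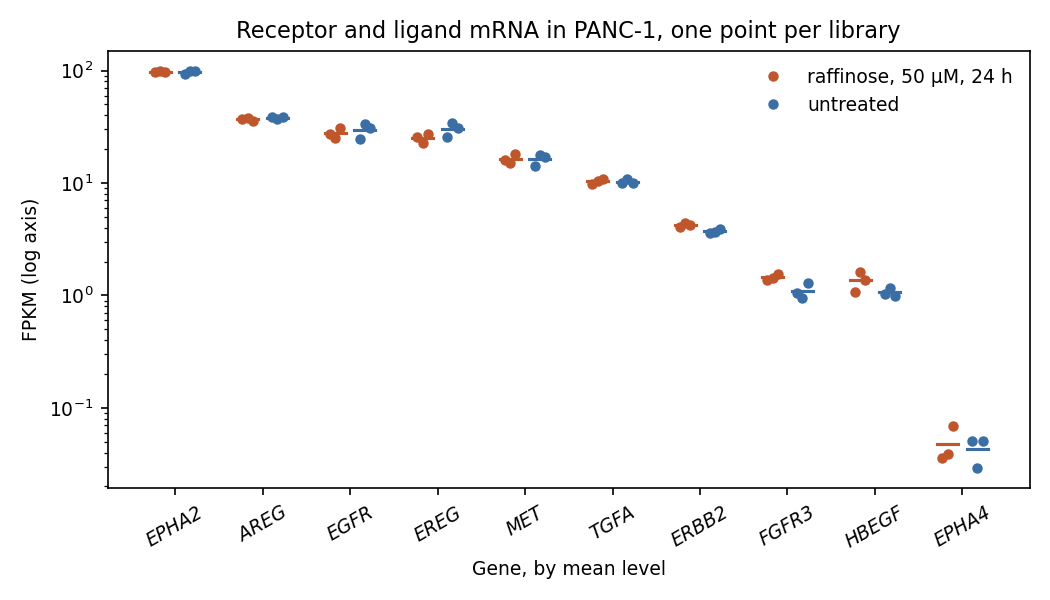
FPKM of the 10 genes on a log axis, 1 point per library and a bar at the mean of each group, with raffinose libraries left of untreated ones. The genes span from 97.2 FPKM for EPHA2 to 0.0456 FPKM for EPHA4, and the groups lie close together for each gene.

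None of the 10 genes passed the test of raffinose against untreated cells. The count over the members was 0 at an adjusted p under 0.05 (edgeR's quasi-likelihood test with Benjamini-Hochberg adjustment over 18863 genes), where 0.122% of all tested genes passed (0.0371% with higher and 0.0848% with lower values), and it was also 0 by DESeq2, where 3.51% passed. DESeq2 gave no adjusted p for EPHA4. At an unadjusted p under 0.05, 2 members had higher values (FGFR3 and ERBB2), against 6.21% of all tested genes, and 1 had lower values (EREG), against 7.08%. In both directions together this was 3 of 10 members and 13.3% of all tested genes. On the CPM scale, which is counts scaled to an equal library size after TMM normalization, the groups did not overlap for the same 3 of 10 members, and for 21.5% of all tested genes (10.6% higher and 10.9% lower). The median log2 fold change of the members was -0.022, and that of all tested genes 0.0059. At this depth and spread a change of 2-fold in either direction lay outside the 95% interval of 9 members. The interval of EPHA4, from 0.503-fold to 2.19-fold, was the exception at its upper end.

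**Figure D2:**
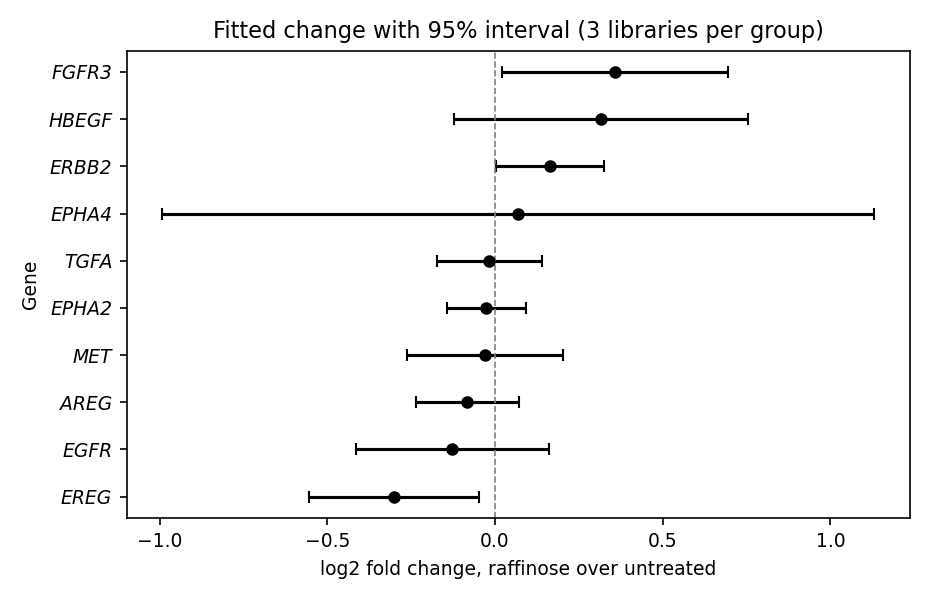
Fitted log2 fold change of raffinose over untreated for each gene (points) with its 95% interval from the edgeR fit (bars), 3 libraries per group. The intervals of FGFR3, ERBB2 and EREG exclude 0 before adjustment for multiple tests, and that of EPHA4 is the widest, from -0.99 to 1.13.

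EGFR (ENSG00000146648, chromosome 7, 55019017 to 55211628, plus strand) binds EGF, transforming growth factor alpha, amphiregulin and epiregulin. Its level was 403, 378 and 452 CPM in raffinose libraries 1, 2 and 3, and 379, 505 and 462 CPM in untreated libraries 1, 2 and 3. The groups overlapped: untreated library 1 was as low as the lowest raffinose library, and the other untreated libraries were the highest of all. The log2 fold change was -0.13 (SE 0.12, 95% interval -0.42 to 0.16, edgeR adjusted p = 0.705). An antisense gene, EGFR-AS1, overlaps EGFR, and its level did not exceed 0.0584 FPKM.

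ERBB2 (ENSG00000141736, chromosome 17, 39687914 to 39730426, plus strand) encodes the preferred partner of the other ErbB receptors. It had 50.1, 55.2 and 51.3 CPM in raffinose libraries, against 45.9, 45.6 and 48.2 CPM in untreated libraries. Every raffinose library was above every untreated one, also in FPKM. The difference was small, with a log2 fold change of 0.16 (SE 0.067, 95% interval 0.0027 to 0.33), and did not pass (edgeR adjusted p = 0.370). ERBB2 shares 1931 bases with MIEN1 on the opposite strand, which had a mean of 6.85 FPKM in raffinose and 6.44 FPKM in untreated libraries, and 144 bases with PGAP3, which had 2.19 and 1.35 FPKM in the same order of groups. Whether counting used the strand is not given in the sources used here, so reads of these genes and of ERBB2 may not be separated.

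The other ErbB receptors were scarce. ERBB3, which binds neuregulins, had a mean of 0.611 FPKM in raffinose and 0.626 FPKM in untreated libraries, and ERBB4 did not exceed 0.0150 FPKM and was not tested. EGFR made up 84.9% ± 1.69 of the summed FPKM of the 4 ErbB receptor genes in raffinose libraries and 87.0% ± 1.67 in untreated libraries (SD, n = 3 each). The difference of -2.09 percentage points, against SDs of 1.69 and 1.67, did not pass (two-sided exact permutation test, p = 0.3, where the smallest possible p is 0.1). ERBB2 made up 13.1% ± 1.44 in raffinose libraries and 11.1% ± 1.41 in untreated libraries.

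MET (ENSG00000105976, chromosome 7, 116672196 to 116798377, plus strand) had 138, 131 and 152 CPM in raffinose libraries and 126, 155 and 149 CPM in untreated libraries. The groups overlapped throughout, and untreated library 1 was the lowest of the 6. Its log2 fold change was -0.030 (SE 0.097, 95% interval -0.26 to 0.20, edgeR adjusted p = 0.928). HGF, the ligand of MET, did not exceed 0.0412 FPKM. MST1R, which encodes the related receptor RON, averaged 50.5 ± 1.93 CPM in raffinose and 54.7 ± 1.75 CPM in untreated libraries (SD, n = 3 each; edgeR adjusted p = 0.486).

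EPHA2 (ENSG00000142627, chromosome 1, 16124337 to 16156069, minus strand) had the tightest values of the set. It was at 475, 497 and 465 CPM in raffinose libraries and at 474, 494 and 494 CPM in untreated libraries. Raffinose libraries included both the highest and the lowest value. The log2 fold change was -0.026 (SE 0.049), with a narrow 95% interval of 0.905-fold to 1.07-fold. That interval rests on the spread among libraries, which may be technical only. EPHA4 (ENSG00000116106, chromosome 2, 221418027 to 221574158, minus strand), which binds both ephrin-A and ephrin-B ligands, had estimated counts of 21, 23 and 40 in raffinose libraries and 32, 17 and 29 in untreated libraries. At these counts the 95% interval of EPHA4 was wide, from 0.503-fold to 2.19-fold (log2 fold change 0.069, SE 0.44, edgeR adjusted p = 0.968).

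FGFR3 (ENSG00000068078, chromosome 4, 1793293 to 1808872, plus strand), a receptor for fibroblast growth factors, had 7.90, 8.39 and 8.75 CPM in raffinose libraries, against 6.40, 5.61 and 7.52 CPM in untreated libraries. All 3 raffinose libraries were above all 3 untreated ones, in CPM and in FPKM. Its log2 fold change of 0.36 (SE 0.14, 95% interval 0.021 to 0.70) had the largest size among the 10 genes, and it did not pass (edgeR adjusted p = 0.353).

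Among the ligands, EREG (ENSG00000124882, chromosome 4, 74365145 to 74388749, plus strand), which encodes epiregulin, a ligand of EGFR and ERBB4, had the smallest p of the 10 genes. It was at 174, 156 and 180.0 CPM in raffinose libraries and at 182, 235 and 212 CPM in untreated libraries. In CPM every raffinose library was below every untreated one, but raffinose library 3 and untreated library 1 were nearly equal. In the authors' FPKM, which is not TMM-scaled, the groups overlapped, with 27.0 FPKM in raffinose library 3 and 25.7 FPKM in untreated library 1. The log2 fold change was -0.30 (SE 0.11, 95% interval -0.56 to -0.047), with an edgeR adjusted p of 0.309 and a DESeq2 adjusted p of 0.188.

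AREG (ENSG00000109321, chromosome 4, 74445136 to 74455005, plus strand) encodes amphiregulin, a ligand of EGFR. It was at 71.7, 75.1 and 68.6 CPM in raffinose libraries and at 78.8, 73.3 and 75.9 CPM in untreated libraries. The groups overlapped, since raffinose library 2 was above untreated library 2. The log2 fold change was -0.082 (SE 0.063, 95% interval -0.23 to 0.070, edgeR adjusted p = 0.638). AREG starts 56.4 kb beyond the end of EREG on the same strand. The 2 other EGF-family genes of this stretch of chromosome 4 were scarce: EPGN, which lies 48.4 kb before EREG and encodes epigen, had a mean of 0.0894 FPKM in raffinose and 0.261 FPKM in untreated libraries, and BTC, which encodes betacellulin, did not exceed 0.0554 FPKM.

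TGFA (ENSG00000163235, chromosome 2, 70447284 to 70553826, minus strand) encodes transforming growth factor alpha. It had 57.4, 62.0 and 62.3 CPM in raffinose libraries and 61.2, 63.6 and 59.0 CPM in untreated libraries. Its groups overlapped, and its log2 fold change was -0.017 (SE 0.065, edgeR adjusted p = 0.942). HBEGF (ENSG00000113070, chromosome 5, 140332843 to 140346603, minus strand) encodes heparin-binding EGF-like growth factor, whose gene is known as an early response gene of ERK signalling. It had 3.87, 5.85 and 4.82 CPM in raffinose libraries and 3.88, 4.17 and 3.63 CPM in untreated libraries. Raffinose libraries 2 and 3 were above all untreated libraries, and raffinose library 1 lay among them. The log2 fold change was 0.31 (SE 0.18, 95% interval -0.12 to 0.75, edgeR adjusted p = 0.521).

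The summed CPM of the 4 ligand genes was 307, 299 and 316 in raffinose libraries and 326, 376 and 350.4 in untreated libraries, without overlap. Among all tested genes, taken singly, 10.9% were lower without overlap. EREG, the largest part of the ligand sum, was itself without overlap in CPM, whereas the groups overlapped for AREG, TGFA and HBEGF. In FPKM the same sum was 73.4, 73.0 and 75.1 in raffinose libraries and 75.5, 83.5 and 80.0 in untreated libraries, where raffinose library 3 and untreated library 1 nearly met. The log2 difference was -0.19 on the CPM scale and -0.11 on the FPKM scale. Per length, AREG made up 50.0% ± 2.23 of the summed ligand FPKM in raffinose libraries and 47.9% ± 3.33 in untreated libraries. EREG made up 34.1% ± 2.51 in raffinose and 37.9% ± 3.54 in untreated libraries (SD, n = 3 each).

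EGFR, MET and EREG had their lowest and highest libraries in common within each group. Within the raffinose group, library 2 was the lowest and library 3 the highest for all 3 genes. Within the untreated group, library 1 was the lowest and library 2 the highest for all 3. This pattern was shared by 1236 of the 18863 tested genes (6.55%), so it is not particular to these 3. Over the 6 libraries, which hold both groups, r was 0.697 and rho 0.543 for EREG and MET, and r was 0.958 and rho 0.886 for EGFR and MET. AREG, the neighbour of EREG, did not follow: its highest level was in untreated library 1 and its lowest in raffinose library 3. ERBB2 was highest in raffinose library 2, where EGFR and EREG were lowest.

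**Figure D3:**
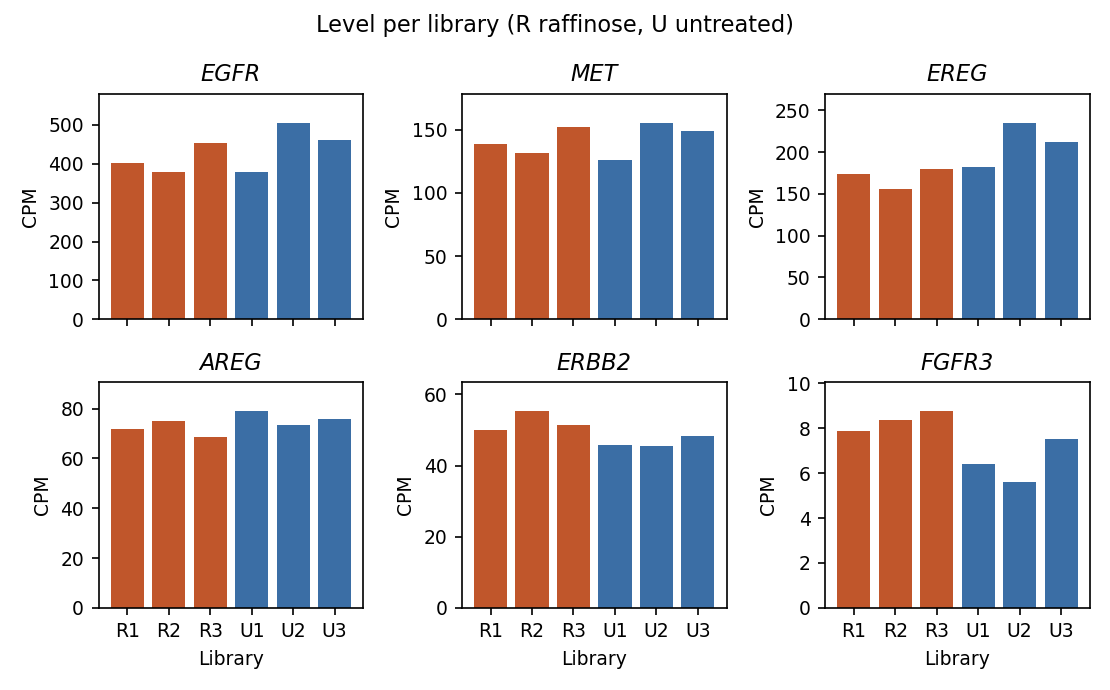
CPM after TMM scaling in each library for 6 of the genes, with raffinose libraries (R1 to R3) left of untreated libraries (U1 to U3). EGFR, MET and EREG dip together in R2 and U1, whereas all raffinose bars of ERBB2 and FGFR3 stand above the untreated ones.

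The genes whose levels followed EREG most closely, by Pearson correlation of log2 CPM over the 6 libraries among 6299 genes with a mean of at least 5 FPKM, were RHBDD3 (r = 0.991, Spearman's rho = 0.943), SPDL1 (r = 0.988, rho = 0.943) and SLC38A1 (r = 0.983, rho = 1). They encode a rhomboid-like membrane protein, a spindle protein and an amino acid transporter. Without the pair of libraries farthest from the median of EREG, r was 0.969, 0.946 and 0.927 for these genes in the same order. These values describe the 6 libraries, which hold both groups, and the closest of many genes will always be close. No test was made of them.

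The wider pathway was described by 118 further genes in lists of receptors, ligands, sheddases, adaptors and regulators, of which 86 were tested. By edgeR 0 of them passed after adjustment, against 0.122% of all tested genes, and 8 had higher and 9 lower values at an unadjusted p under 0.05, against 6.21% and 7.08% of all tested genes. DESeq2 called 4 of them, PTK7 higher and EPHB2, EPHB4 and FGF11 lower, against 3.51% of all tested genes. Their median log2 fold change was -0.0049.

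Among the other EPH receptors, 7 of 8 tested genes had negative values, where 49% of all tested genes did, with a median log2 fold change of -0.25. The groups did not overlap for 3, all lower, where 10.9% of all tested genes were lower without overlap. The 3 were EPHB2, EPHB4 and EPHB6, which belong to the B class. The other tested B-class receptor, EPHB3, was the 1 gene of the list with a positive value (log2 fold change 0.26, SE 0.37), at no more than 0.175 FPKM. EPHB2 was at 114, 115 and 110.2 CPM in raffinose libraries and at 139, 144 and 141 CPM in untreated libraries. The groups were far apart relative to their spread (log2 fold change -0.32, SE 0.051), and the gene was called by DESeq2 but not by edgeR (adjusted p = 0.111). EPHB4 averaged 102 ± 3.43 CPM in raffinose and 118 ± 2.25 CPM in untreated libraries (SD, n = 3 each; log2 fold change -0.22, edgeR adjusted p = 0.199). EPHB6, whose kinase domain is inactive, had 28.2, 32.9 and 28.2 CPM in raffinose libraries and 37.0, 40.1 and 35.9 CPM in untreated libraries (edgeR adjusted p = 0.221). It was named after its values were seen. Of the 8 ephrins, 5 had positive and 3 negative values, with a median of 0.12, and the smallest edgeR adjusted p was 0.50. EFNA5 had the highest level at 4.02 FPKM in raffinose and 4.21 FPKM in untreated libraries.

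Of 7 other EGF-family ligands, 4 were tested and 0 passed by edgeR. NRG1 and NRG2 did not pass by DESeq2 either, which gave no adjusted p for EPGN and NRG4. NRG1, which encodes a ligand of ERBB3 and ERBB4, had 1.31 FPKM in both groups. For EPGN the log2 fold change was -1.55 (SE 0.50) at levels of at most 1.52 CPM, with an edgeR adjusted p of 0.282. Of the 9 genes around MET, 5 were tested. SPINT2, which encodes an inhibitor of the proteases that activate hepatocyte growth factor, had 464, 659 and 622 CPM in raffinose libraries and 756, 674 and 756 CPM in untreated libraries, with the groups apart and an edgeR adjusted p of 0.373.

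The other FGF receptors were mixed, with 2 positive and 2 negative values. FGFR1, the most abundant of them with a kinase domain, averaged 88.1 ± 3.37 CPM in raffinose and 96.4 ± 4.88 CPM in untreated libraries (SD, n = 3 each). FGFRL1, which lacks a kinase domain, had 40.7, 40.7 and 102 CPM in raffinose libraries and 117, 108 and 116 CPM in untreated libraries. Raffinose library 3 stood near the untreated level. With all libraries FGFRL1 did not pass (edgeR adjusted p = 0.369, DESeq2 adjusted p = 0.110), and it passed by edgeR only with raffinose library 3 left out. FGFR2 averaged 1.09 ± 0.0146 CPM in raffinose and 0.542 ± 0.185 CPM in untreated libraries (edgeR adjusted p = 0.276). It was scarce, at no more than 0.123 FPKM, and DESeq2 gave it no adjusted p. Its estimated counts were 70, 68 and 71 in raffinose libraries and 38, 45 and 20 in untreated libraries. FGF11 had 3.08, 2.05 and 3.36 CPM in raffinose libraries and 12.5, 3.58 and 8.62 CPM in untreated libraries, with an edgeR adjusted p of 0.251.

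The list of sheddases and their regulators had 7 tested genes: the proteases ADAM9, ADAM10, ADAM15 and ADAM17, the inactive rhomboids RHBDF1 and RHBDF2, and the inhibitor TIMP3. The proteases' log2 fold changes were 0.26 for ADAM10, 0.19 for ADAM15, 0.020 for ADAM17 and 0.019 for ADAM9, and the smallest edgeR adjusted p of the list was 0.446. ADAM10 was at 178, 158 and 194 CPM in raffinose libraries and at 123, 157 and 162 CPM in untreated libraries, with the lowest value again in untreated library 1. ADAM9, the most abundant, had 36.2 FPKM in raffinose and 34.8 FPKM in untreated libraries. Among 17 tested negative regulators, the groups did not overlap for 3, all higher with raffinose, where 10.6% of all tested genes were higher without overlap. In either direction the share was below the 21.5% over all tested genes. ERRFI1, whose product MIG6 binds and inhibits active EGFR, was at 494, 500.3 and 505 CPM in raffinose libraries and at 441, 455 and 428 CPM in untreated libraries. The log2 fold change was 0.18 (SE 0.047), with an edgeR adjusted p of 0.208 and a DESeq2 adjusted p of 0.0905. USP8, which encodes a deubiquitinase that acts on endocytosed EGFR, averaged 69.9 ± 3.23 CPM in raffinose and 60.6 ± 3.71 CPM in untreated libraries (SD, n = 3 each).

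The 11 adaptor and signalling genes were all tested, with 7 positive and 4 negative values and a median log2 fold change of 0.029. GAB1, a docking protein of MET and EGFR, averaged 6.47 ± 0.195 CPM in raffinose and 4.91 ± 0.559 CPM in untreated libraries (SD, n = 3 each; edgeR adjusted p = 0.292). Of 17 other receptor kinases tested, 11 had positive and 6 negative values. PTK7, a pseudokinase of WNT signalling, averaged 42.8 ± 2.10 CPM in raffinose and 34.7 ± 1.42 CPM in untreated libraries (log2 fold change 0.30, SE 0.072, edgeR adjusted p = 0.190). IGF1R, the receptor of insulin-like growth factor, was at 98.2, 95.9 and 99.7 CPM in raffinose libraries and at 109.8, 118 and 112 CPM in untreated libraries (edgeR adjusted p = 0.215). AXL, a receptor for GAS6, averaged 376 ± 2.81 CPM in raffinose and 408 ± 5.39 CPM in untreated libraries (edgeR adjusted p = 0.324). The deposited table's own KEGG column places 78 genes other than the members in ErbB signalling, some of which are also in the lists above. Of these 70 were tested, 38 with positive and 32 with negative values, with a median of 0.025. By edgeR 0 passed and 8 had an unadjusted p under 0.05, a share below the 13.3% over all tested genes. DESeq2 called 1, PIK3R3, also a share below the 3.51% over all tested genes.

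**Figure D4:**
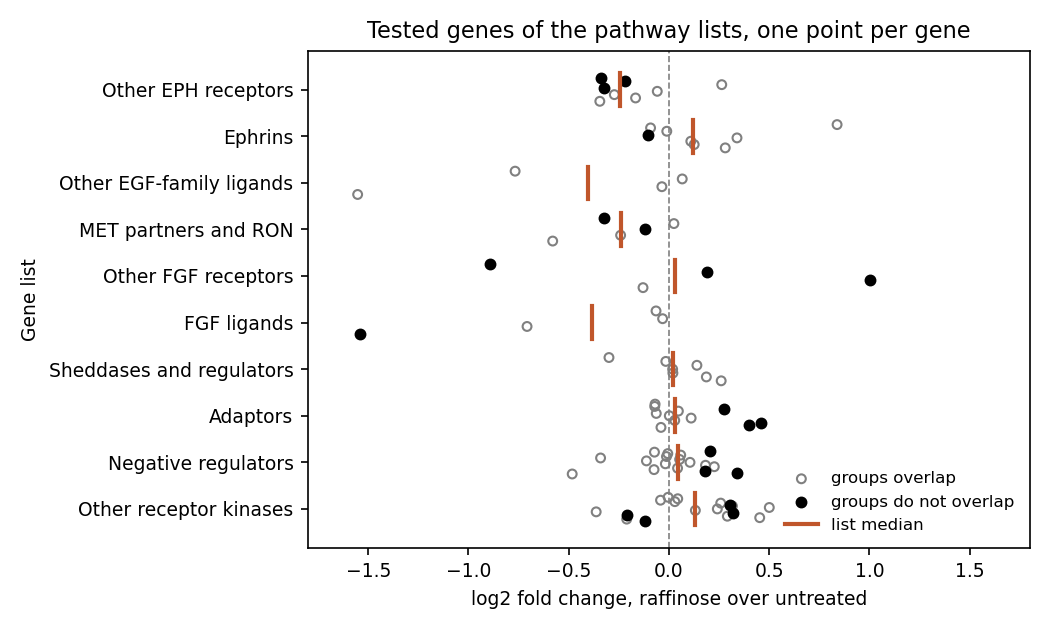
Log2 fold change of raffinose over untreated for each tested gene of 10 pathway lists, with filled points where the 3 raffinose and the 3 untreated libraries do not overlap in CPM and a bar at the list median. Other EPH receptors have a median of -0.25 and adaptors one of 0.029, and 0 of the genes shown passed by edgeR after adjustment.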

How the data were processed

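The deposited table gives FPKM for each gene in each library, and beside it an estimated count, per the file headers. Genes without reads are listed at 0.0001 FPKM in the deposited columns. Per the submitters' processing notes, StringTie 1.3.4d, HISAT2 2.0.4 and cutadapt 1.9 were among the tools, besides DESeq2 and edgeR, with no role stated. Genome build, annotation and use of strand are not given there or in the labels. Coordinates of genes are those of the deposited table.

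The deposited estimated counts, already whole numbers, were tested with edgeR 4.0.16 (R 4.3.3): filterByExpr with a minimum count of 10, TMM scaling, glmQLFit and glmQLFTest, with Benjamini-Hochberg adjustment over 18863 genes and a threshold of 0.05. Intervals are 95% intervals of that fit. The common biological coefficient of variation was 27.1%. No 2 libraries had equal counts in over 1.38% of tested genes. The fits were tested on simulated data. Alternatives were DESeq2 1.42.0, its size factors, 2 other filters, counts divided by 4, limma 3.58.1 on log2(FPKM + 0.1) and log2(FPKM + 1), the replicate number as a block, and each library left out.

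The members and lists were chosen with earlier results of these data known. The text names all members, up to 2 genes per list with the smallest p, up to 2 with the highest FPKM, and 3 genes most like the member with the smallest p. Other genes were named after their values were seen.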

Additional observations from a re-analysis of the deposited data

How the results depend on the processing

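None of the 10 members passed in any of the 14 alternatives run for each (12 for EPHA4, which was left out by 2 filters), and EGFR, ERBB2, HBEGF, AREG, EREG and FGFR3 kept their direction in all of them. EPHA4 had no adjusted p from DESeq2, so it could not pass there. The adjusted p of EREG ranged from 0.188 to 0.529 over these alternatives, that of FGFR3 from 0.246 to 0.579 and that of ERBB2 from 0.239 to 0.550. Directions turned for members near 0. With limma on log2(FPKM + 0.1) and log2(FPKM + 1) the log2 fold changes were 0.011 and 0.011 for EPHA2, 0.010 and 0.0094 for MET, and 0.020 and 0.018 for TGFA. In the same fits the median log2 fold change of all tested genes was 0.038 and 0.019, against 0.0059 in the main fit. With libraries left out the log2 fold changes ranged from -0.12 to 0.031 for MET, from -0.044 to 0.021 for TGFA and from -0.27 to 0.24 for EPHA4.

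Among all genes tested, 23 were called. DESeq2 called 663, counts divided by 4 gave 35 among 15212 genes tested, and a filter at FPKM 1 gave 42 among 12012. With a library left out the count ranged from 4, without untreated replicate 3, to 23, and it was 11 without raffinose replicate 2. The cause of these differences was not tested. Among pathway genes DESeq2 called 4 in place of 0, and leaving out a library gave 0 to 1, the 1 being FGFRL1 without raffinose replicate 3. The replicate block gave 0 calls over the whole table, with 1932 genes at an unadjusted p under 0.05 in edgeR. For raffinose and untreated libraries with equal numbers, deviations from the group means correlated at -0.018, -0.063 and 0.014, so no pairing by number was seen. EPHA4, with the lowest counts of the members, had the widest interval.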

Other observations

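Some genes downstream of these receptors had 1 library far from the rest, chosen after their values were seen. GRB2, the adaptor that links receptors to SOS, was at 87.7, 89.4 and 113 CPM in raffinose libraries and at 35.3, 124 and 125 CPM in untreated libraries. CBL, the ubiquitin ligase that marks active EGFR and MET for degradation, was at 12.5, 87.4 and 111 CPM in raffinose libraries and at 76.5, 111 and 108 CPM in untreated libraries. GAB2, a docking protein, was at 26.0, 27.1 and 25.7 CPM in raffinose libraries and at 23.9, 8.05 and 25.5 CPM in untreated libraries. The low library differed from gene to gene, and none of these genes passed by edgeR, whose adjusted p ranged from 0.674 for GAB2 to 0.989 for GRB2.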
